A study of Mus musculus with 6 samples.

Results

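The colony-stimulating factors and their receptors were followed across the cells of B16-F10 melanomas, as 4 ligand genes (Csf1, Il34, Csf2 and Csf3) and 4 receptor genes (Csf1r, Csf2ra, Csf2rb and Csf3r). These 8 genes were taken by symbol from the 32285 genes of the deposited matrices, and they were chosen with earlier results of these data known. Droplet libraries were made from CD45+ cells isolated with magnetic beads from cryopreserved tumor suspensions, giving 3 samples labelled αPD-1 and 3 labelled αPD-1 + corin. All tumors grew from B16-F10 cells, a mouse melanoma line, in female C57BL/6 mice 6 to 10 weeks of age, and mice of both groups received 150 μg of anti-PD-1 antibody (clone 29F.1A12) 3 times per week from day 7. Mice of the αPD-1 + corin group also received 200 μg of corin, an inhibitor of the CoREST complex, by daily i.p. injection from day 6, and the labels give 5% DMSO/PBS as the vehicle. Each treatment group had 10 mice. The labels do not tie samples to mice, so p values here measure the spread between these samples, which may be technical.

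The 4 cytokines drive the production, survival and activation of myeloid cells. CSF1 and IL-34 bind the same receptor, the tyrosine kinase CSF1R, on which most tissue macrophages depend. GM-CSF (Csf2) binds a receptor made of a specific α chain (Csf2ra) and a β chain (Csf2rb) shared with the receptors for IL-3 and IL-5, and G-CSF (Csf3) binds CSF3R, the main growth receptor of the neutrophil lineage. In tumors, fibroblasts, tumor cells and activated lymphocytes are known sources of the ligands, and macrophages, monocytes, neutrophils and DCs carry the receptors.

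Of 52899 barcodes, 30067 passed the limits on genes and mitochondrial UMIs, and 28865 remained after doublet removal. The libraries held 52281422 to 84276739 UMIs, and 78 to 137 barcodes per library also occurred in another library. Cells were clustered together and named from markers that include none of the 8 genes, and each name means only that a cluster resembles that type. Levels are UMIs of a gene per 1000000 UMIs (CPM) of a lineage in a sample. Such a sum cannot tell fewer cells with a transcript from fewer transcripts per cell. The 8 lineages held 3535 T cells, 784 NK cells, 10283 macrophages, 1495 monocytes, 1929 neutrophils, 1863 DCs, 1883 melanoma cells and 990 fibroblasts. Neutrophils were few in the αPD-1 samples, with 21, 14 and 13 cells in replicates 1 to 3, against 609, 1183 and 89 in those with corin. Fibroblasts numbered 63, 39 and 48 against 614, 78 and 148 cells. Ptprc, the gene of CD45, was at 396 to 2297 CPM in the 6 leukocyte lineages, 8.12 to 55.9 CPM in melanoma cells and 14.2 to 64.0 CPM in fibroblasts. The cells of the last 2 lineages passed through the CD45 isolation, so their numbers do not measure their share of the tumor.

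Csf1, the main survival factor of macrophages, had its highest levels in fibroblasts and neutrophils. The level in fibroblasts was 236, 274 and 265 CPM in the αPD-1 samples and 248, 349 and 441 CPM in the αPD-1 + corin samples. In neutrophils it was 277, 260 and 154 CPM against 181, 238 and 368 CPM. All 12 of these sums lay above every sum of the other lineages. The means over the 6 samples were 302 ± 78.6 CPM in fibroblasts and 246 ± 76.0 CPM in neutrophils (SD, n = 6), and their ranges overlapped. This order turned with barcodes down to 200 genes kept, where the group means were 406 and 426 CPM in neutrophils and 260 and 342 CPM in fibroblasts. Neutrophils stood 10.5-fold above the next lineage, monocytes, at 23.5 ± 6.27 CPM. From monocytes down to melanoma cells (11.4 ± 3.67 CPM) each neighbor in the order overlapped the next, and B cells, which are not known as a source, were at 9.84 ± 5.40 CPM. With every cell reduced at random to 1000 UMIs (thinned), a Csf1 UMI was found in 25.5% of fibroblasts and 20.8% of neutrophils, against 0.494% of B cells. Without thinning these shares were 64.3%, 37.7% and 1.78%, at median depths of 7427, 2972 and 1697 UMIs per cell. Thinning left out 2 fibroblasts, 12 neutrophils and 117 B cells.

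Csf1 also varied among clusters of a lineage. In the neutrophil cluster led by S100a9 and S100a8 (1648 cells) the pooled level was 265 CPM. It was 88.7 CPM in the neutrophil cluster led by Cxcl3 (281 cells), in which 10 of 15 DC markers also counted. Among T cells, regulatory T cells, the Foxp3-expressing suppressor subset, held 55.1, 51.2 and 82.1 CPM in the αPD-1 samples and 30.6, 18.2 and 32.8 CPM in the αPD-1 + corin samples. These groups did not overlap, but the levels rest on 56 UMIs in 375 cells and were not tested. In αPD-1 + corin replicate 1 only 15 of these cells lay in the Foxp3-led cluster and 2 in the Tox-led cluster. Its level therefore rests on very few counts. Naive T cells held 6 Csf1 UMIs in 1178 cells. Among macrophages the Mmp12- and Spp1-led cluster had the highest pooled level, 33.0 CPM, and the Lyve1-led cluster the lowest, 3.12 CPM.

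**Figure D1:**
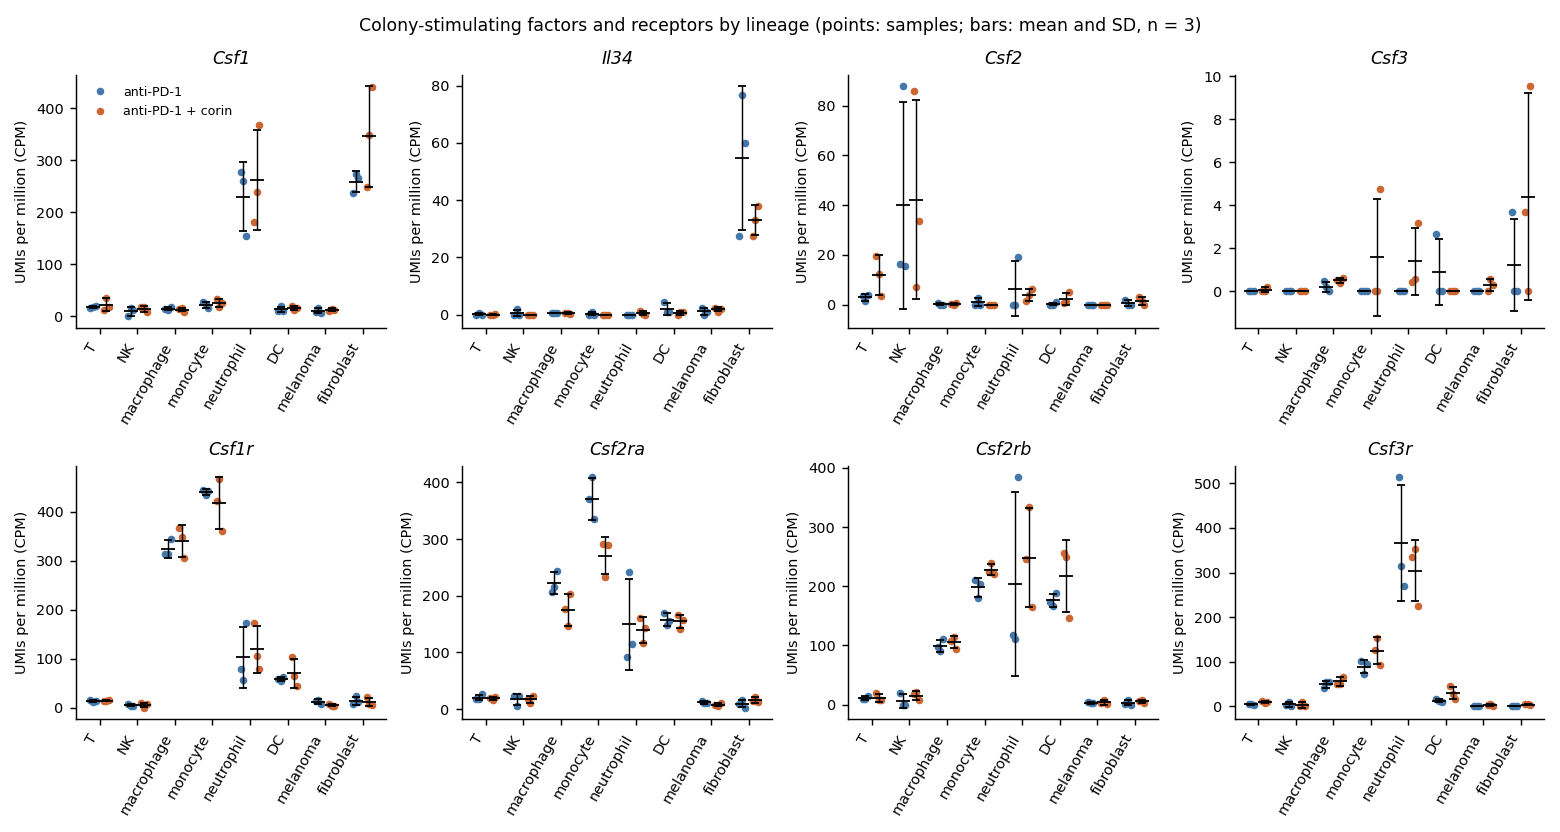
Levels of the 4 ligands (top) and 4 receptors (bottom) in CPM (y axis) in 8 lineages (x axis); each point is a sample, and bars give the mean and SD of 3 samples per group. Csf1 stood out in fibroblasts and neutrophils, Il34 in fibroblasts, Csf2 in NK cells, and the receptors in the 4 myeloid lineages.

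Il34, the second ligand of CSF1R, was highest in fibroblasts among the 8 lineages. The level was 27.5, 76.9 and 59.9 CPM in the αPD-1 samples and 27.6, 33.1 and 38.1 CPM in the αPD-1 + corin samples, so the groups overlapped. The mean of 43.9 ± 20.1 CPM (SD, n = 6) was 28.4-fold that of the next lineage, melanoma cells at 1.55 ± 0.981 CPM, and the ranges of these lineages did not overlap. The other 6 lineages had means from 0.145 to 1.40 CPM. A thinned Il34 UMI was found in 5.23% of fibroblasts and in 0.0161% of B cells. Of the Il34 UMIs, 418 in all, fibroblasts gave 39.5%, 61.2% and 40.4% under αPD-1, against 78.5%, 44.7% and 63.8% under αPD-1 + corin. A cluster that took no name, led by Rgs5 and with 10 endothelial and 8 fibroblast markers counted, gave up to 38.5% in a sample. Its Il34 level was above that of fibroblasts in 6 of 6 samples, although nearly equal in αPD-1 + corin replicate 1 (27.7 and 27.6 CPM).

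Csf2 encodes GM-CSF, a product of activated lymphocytes. NK cells held 16.3, 87.9 and 15.5 CPM in the αPD-1 samples and 86.0, 7.14 and 33.6 CPM in the αPD-1 + corin samples, with no separation of the groups. The mean was 41.1 ± 36.6 CPM (SD, n = 6), and its range overlapped that of T cells at 7.28 ± 7.08 CPM. Few cells carried it: 88 Csf2 UMIs lay in 31 of 784 NK cells, and 1 cell held 13 of them. The NK-like cluster led by Xcl1 and Ccl1 (184 cells) had a pooled level of 93.8 CPM, and the Gzma-led cluster (600 cells) 18.0 CPM. Of 12 T cell markers, 8 also counted in the Xcl1-led cluster and 5 in the Gzma-led cluster. In T cells, 58 UMIs lay in 39 of 3535 cells. No Csf2 UMI was counted in melanoma cells, which allows a level of up to 0.276 CPM, or in B cells, which allows up to 0.510 CPM (3 counts over all samples, counting error only). A thinned UMI was found in 2.53% of NK cells and 0.533% of T cells.

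Csf3, the granulocyte factor G-CSF, was close to the limit of detection everywhere. In all, 68 UMIs were counted, of which 30 lay in 16 fibroblasts and 19 in 14 macrophages. The fibroblast level was 3.66, 0 and 0 CPM in the αPD-1 samples and 3.67, 0 and 9.53 CPM in the αPD-1 + corin samples. NK cells held no UMI, which allows a level of up to 1.40 CPM. Csf3 had too few counts in every lineage to be tested in the main comparison. Without the upper limit on genes, fibroblasts held 1.40, 0 and 0 CPM in the αPD-1 samples. The αPD-1 + corin samples then held 2.70, 26.0 and 5.74 CPM, without overlap, and Csf3 was not called there.

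**Figure D2:**
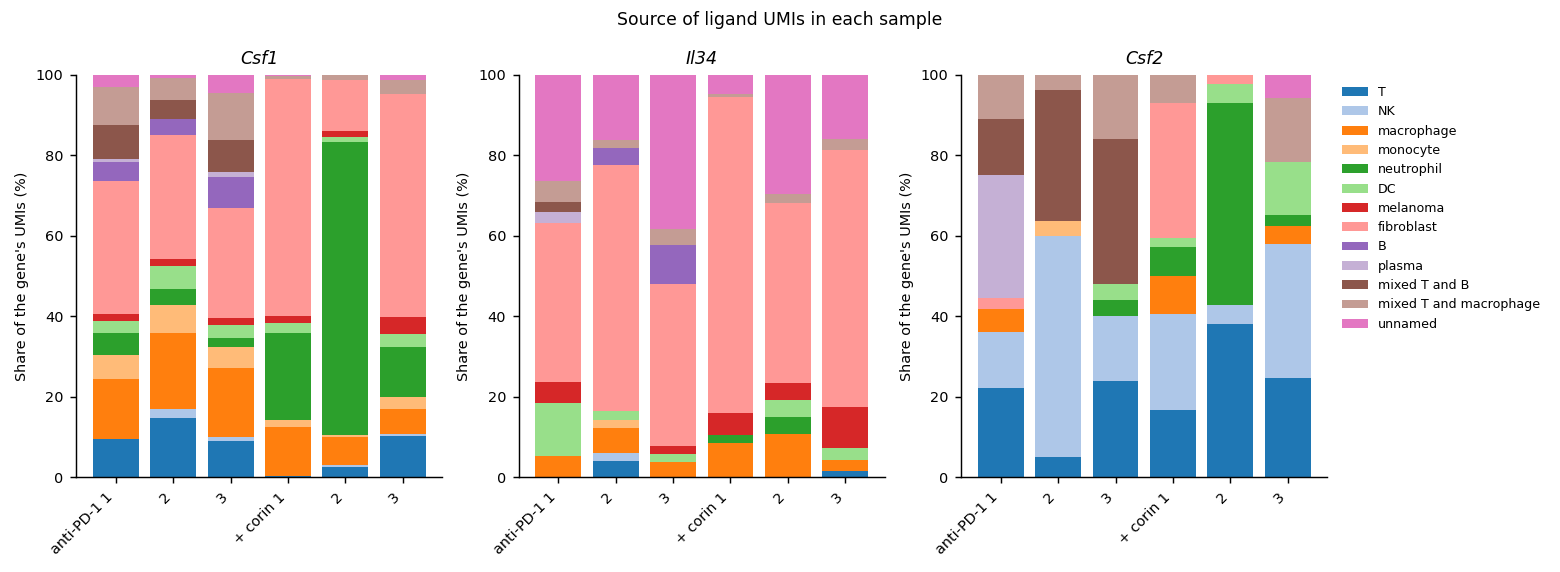
Share of the UMIs of Csf1, Il34 and Csf2 (y axis, %) that came from each lineage or other cluster, for each of the 6 samples (x axis). For Csf1, fibroblasts gave 27.1% to 32.9% in the αPD-1 samples, and neutrophils gave 72.7% in αPD-1 + corin replicate 2.

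The sources of Csf1 differed more among the αPD-1 + corin samples than among the αPD-1 samples. Neutrophils gave 5.36%, 4.03% and 2.33% of the Csf1 UMIs under αPD-1, against 21.6%, 72.7% and 12.6% under αPD-1 + corin. Fibroblasts gave 32.9%, 30.8% and 27.1% against 58.7%, 12.8% and 55.2%. Macrophages, low in level but many in number, gave 15.1%, 18.7% and 17.2% against 12.1%, 7.00% and 6.18%, and T cells 9.44%, 14.7% and 9.04% against 0.204%, 2.66% and 10.2%. Under αPD-1 both gave more than neutrophils in 3 of 3 samples. The neutrophil shares did not overlap between the groups, and the fibroblast shares did. The plot of ligand sources shows the same for each sample.

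The receptor genes were highest in the myeloid lineages. Csf1r was at 445, 434 and 442 CPM in monocytes of the αPD-1 samples and at 422, 467 and 361 CPM in those of the αPD-1 + corin samples. Macrophages held 313, 314 and 345 CPM against 367, 347 and 305 CPM. Monocytes exceeded macrophages in 6 of 6 samples, although the ranges of the lineages overlapped, with means of 429 ± 36.1 and 332 ± 24.8 CPM (SD, n = 6). Neutrophils (111 ± 50.3 CPM) and DCs (64.1 ± 20.1 CPM) overlapped each other and lay below all macrophage sums. The other lineages had means between 5.05 and 13.6 CPM, and B cells 12.9 ± 12.3 CPM. A thinned Csf1r UMI was found in 35.5% of monocytes and 26.2% of macrophages, and in 1.12% of B cells.

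Within the macrophages, pooled Csf1r levels ran from 188 CPM in the Camk1d-led cluster to 504 CPM in the cluster led by Lyve1, a marker of tissue-resident macrophages, and Fcna. DC subsets were further apart. The cDC1-like cells (172 cells) held 4.06 ± 3.32 CPM and the cDC2-like cells 121 ± 34.4 CPM (SD, n = 6), with no overlap. A cycling DC cluster of 313 cells, also led by Xcr1 but not counted as cDC1-like here, held 29.9 ± 8.15 CPM. These subsets were defined by clusters of the same cells, so the levels are a description without a test.

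**Figure D3:**
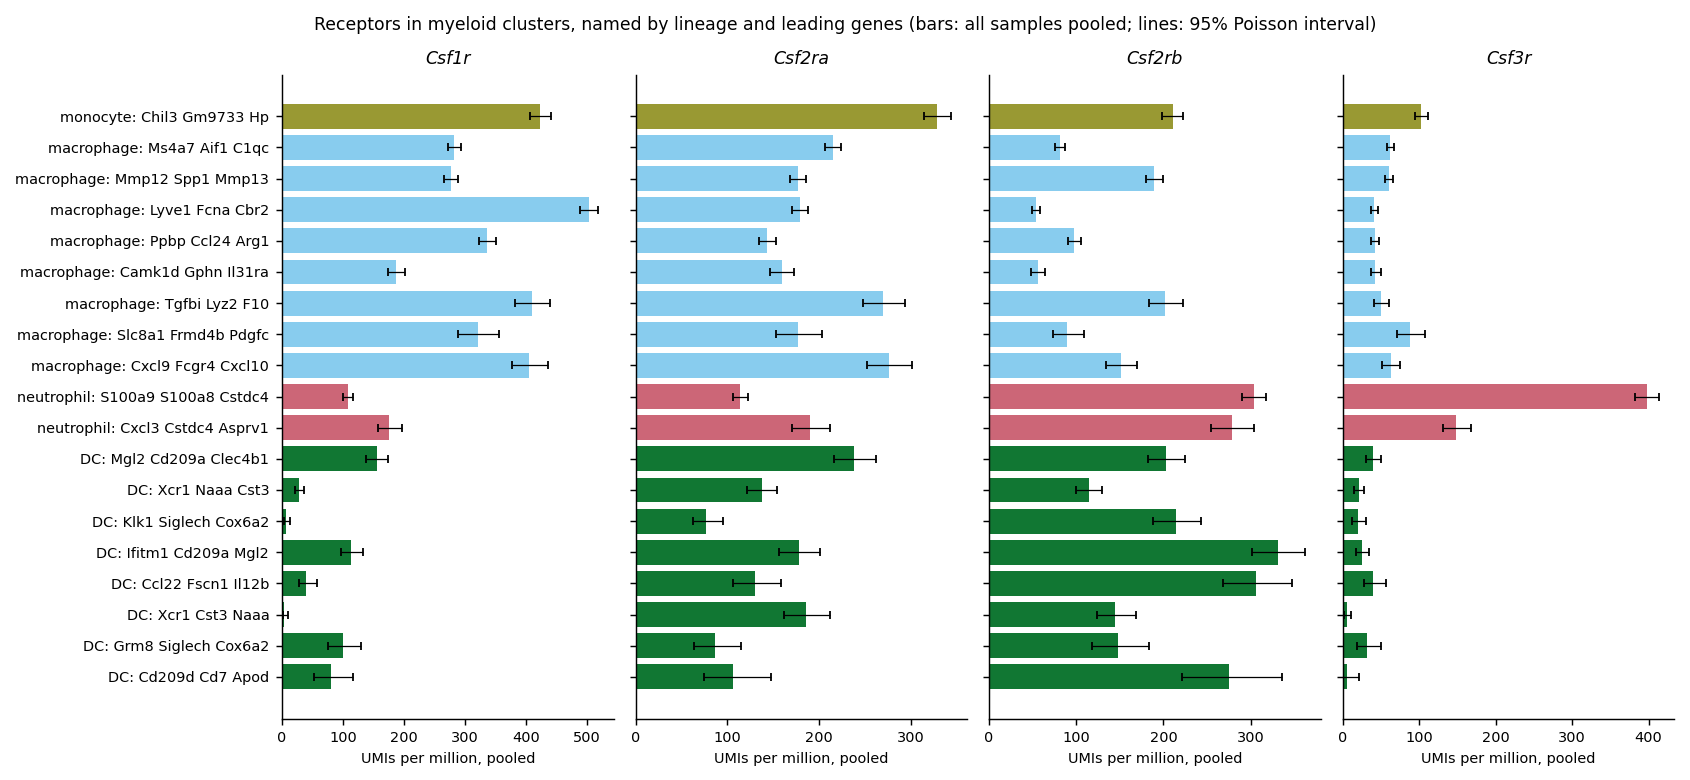
Pooled levels of the 4 receptors (x axis, CPM over all 6 samples) in each monocyte, macrophage, neutrophil and DC cluster (y axis, named by leading genes); lines are 95% Poisson intervals and cover counting error only. Csf1r was highest in the Lyve1-led macrophages at 504 CPM, and Csf3r in the S100a9-led neutrophils at 397 CPM.

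The chains of the GM-CSF receptor were both detected in all 4 myeloid lineages. Csf2ra, the ligand-specific α chain, was at 321 ± 63.4 CPM in monocytes, 199 ± 33.6 CPM in macrophages, 156 ± 10.5 CPM in DCs and 145 ± 52.9 CPM in neutrophils (SD, n = 6). Neighbors in this order overlapped in range, but monocytes were above macrophages in 6 of 6 samples. The neutrophil mean was 7.33-fold that of T cells, without overlap. Csf2rb, the shared β chain, was at 226 ± 114 CPM in neutrophils, 213 ± 20.2 CPM in monocytes and 197 ± 45.5 CPM in DCs, which overlapped. Macrophages lay below DCs without overlap, at 103 ± 10.0 CPM. Among macrophage clusters Csf2rb ran from 53.7 CPM in the Lyve1-led cluster to 202 CPM in the Tgfbi-led cluster, an order unlike that of Csf1r. The cDC1-like cells held 185 ± 17.1 CPM of Csf2ra, near the 203 ± 7.04 CPM of cDC2-like cells. The cycling DC cluster led by Xcr1 held 135 ± 16.6 CPM. A thinned UMI was found in 26.5% of monocytes for Csf2ra and 18.6% for Csf2rb, against 2.38% and 0.783% of B cells.

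Mice carry a near copy of the β chain gene, Csf2rb2, which encodes the IL-3-specific β chain and lies beside it on chromosome 15 (GRCm39, Csf2rb at 78209952 to 78238047 and Csf2rb2 at 78166707 to 78189921). Of the 50-base windows of the longest Csf2rb transcript, 18.4% also occur in that of Csf2rb2, so reads from these stretches could be assigned to either gene or discarded. Csf2rb2 was at 114 ± 26.9 CPM in DCs and 57.7 ± 26.9 CPM in neutrophils. Its pooled level reached 446 CPM in the Cd209d-led DC cluster and 305 CPM in the Klk1- and Siglech-led cluster.

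Csf3r, the G-CSF receptor, was highest in neutrophils. Neutrophils held 514, 315 and 269 CPM in the αPD-1 samples and 335, 353 and 225 CPM in the αPD-1 + corin samples. Their mean of 335 ± 99.0 CPM (SD, n = 6) was 3.13-fold that of monocytes (107 ± 28.7 CPM), which was 2.03-fold that of macrophages (52.8 ± 8.51 CPM), with no overlap at either step. DCs were at 21.4 ± 13.2 CPM and T cells at 6.89 ± 2.95 CPM, and B cells were at 7.73 ± 8.95 CPM. The S100a9-led neutrophil cluster had a pooled level of 397 CPM and the Cxcl3-led cluster 148 CPM. A thinned UMI was found in 29.4% of neutrophils and 0.142% of B cells.

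Promoters are shown for the receptor genes that have a RefSeq entry with the PU box core, because Spi1, the gene of PU.1, a factor that binds this core in myeloid genes, was among the genes whose levels most resembled those of Csf2ra. Entries of 4 of the 8 members (Csf1, Csf2, Csf2ra and Csf3r) and of Csf2rb2 were matched by symbol, and the 250 bases before the start were searched on both strands for GAGGAA. Csf2ra holds it at -14 and -8, counted in bases from the start, Csf3r at -86, and Csf2rb2 on the reverse strand (as TTCCTC) at -167, while these letters are not in the windows of Csf1 and Csf2. Of all 32851 promoters, 23.3% hold it, so a match is only a description. The sequences are RefSeq's for GRCm38.p6, 5′ to 3′ on the gene's strand, with the matches in capitals. Csf2ra is at chr19:61228419-61228668 (reverse strand), Csf3r at chr4:126024409-126024658 (forward strand) and Csf2rb2 at chr15:78305722-78305971 (reverse strand).
Csf2ra: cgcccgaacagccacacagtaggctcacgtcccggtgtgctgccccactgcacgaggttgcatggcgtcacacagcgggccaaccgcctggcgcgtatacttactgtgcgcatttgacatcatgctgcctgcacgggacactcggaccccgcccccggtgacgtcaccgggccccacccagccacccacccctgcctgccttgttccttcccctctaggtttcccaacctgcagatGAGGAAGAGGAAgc
Csf3r: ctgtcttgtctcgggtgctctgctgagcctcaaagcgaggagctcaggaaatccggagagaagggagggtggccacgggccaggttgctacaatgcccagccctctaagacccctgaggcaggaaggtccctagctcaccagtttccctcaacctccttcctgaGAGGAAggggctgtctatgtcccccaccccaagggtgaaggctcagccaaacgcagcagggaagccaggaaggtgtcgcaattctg
Csf2rb2: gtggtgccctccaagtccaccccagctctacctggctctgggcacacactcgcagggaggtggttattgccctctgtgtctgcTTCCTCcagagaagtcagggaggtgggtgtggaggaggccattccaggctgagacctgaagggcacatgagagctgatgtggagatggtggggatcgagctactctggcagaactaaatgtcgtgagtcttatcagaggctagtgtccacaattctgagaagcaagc

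Levels across the 48 sums of lineage and sample put each member beside other genes. The 3 genes with the highest Pearson correlation of log2(CPM + 1) among 9752 candidates are named as a description, since lineages share samples and libraries. Candidates included markers that named the lineages, here Pdgfrb, Klra4, Ncr1 and Trem1, so a match with these is no independent support. Csf1 was nearest to Pde1a (r = 0.82), Eml1 and Inhba. Il34 was nearest to Pdgfrb (r = 0.96), a receptor of mesenchymal cells, Nrep and Atp8b1. Csf2 was nearest to the NK receptor genes Klrc2 (r = 0.84), Klra4 and Ncr1, and Csf3 to Gm16685 (r = 0.59), Serpinb2 and Htr2a. Csf1r resembled Pira2 (r = 0.94), Gm36161 and Pid1, and Csf2ra resembled Ly86 (r = 0.96), Spi1 and Pirb. Csf2rb resembled Plbd1 (r = 0.95), Mpeg1 and Pirb, and Csf3r resembled Trem1 (r = 0.95), Clec4e and Hcar2. The 4 receptors correlated with each other at r = 0.77 to 0.92, and Csf1 with Csf1r at r = 0.04.

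The treatment comparison asked whether the members differed between αPD-1 + corin and αPD-1 within a lineage. Of 64 pairs of member and lineage, 29 had enough counts to be tested, and the other 35 did not pass the filter on low counts. The quasi-likelihood test of edgeR called 0 of the 29 at an adjusted p of 0.05, against 3.51% of the 63427 gene and lineage pairs tested. At an unadjusted p of 0.05, 4 of the 29 pairs passed (13.8%, against 17.2% of all pairs). The share of genes called differed between lineages, at 19.3% in T cells, 2.17% in fibroblasts, 0.996% in monocytes, 0.421% in DCs, 0.343% in neutrophils, 0.169% in macrophages, 0.105% in NK cells and 0% in melanoma cells (0 called and 679 at an unadjusted p of 0.05). The log2 fold changes of the members lay between -0.72 and 1.29 with a median of 0.24, and 22 of 29 were above 0, while the median over all pairs tested was 0.00215.

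**Figure D4:**
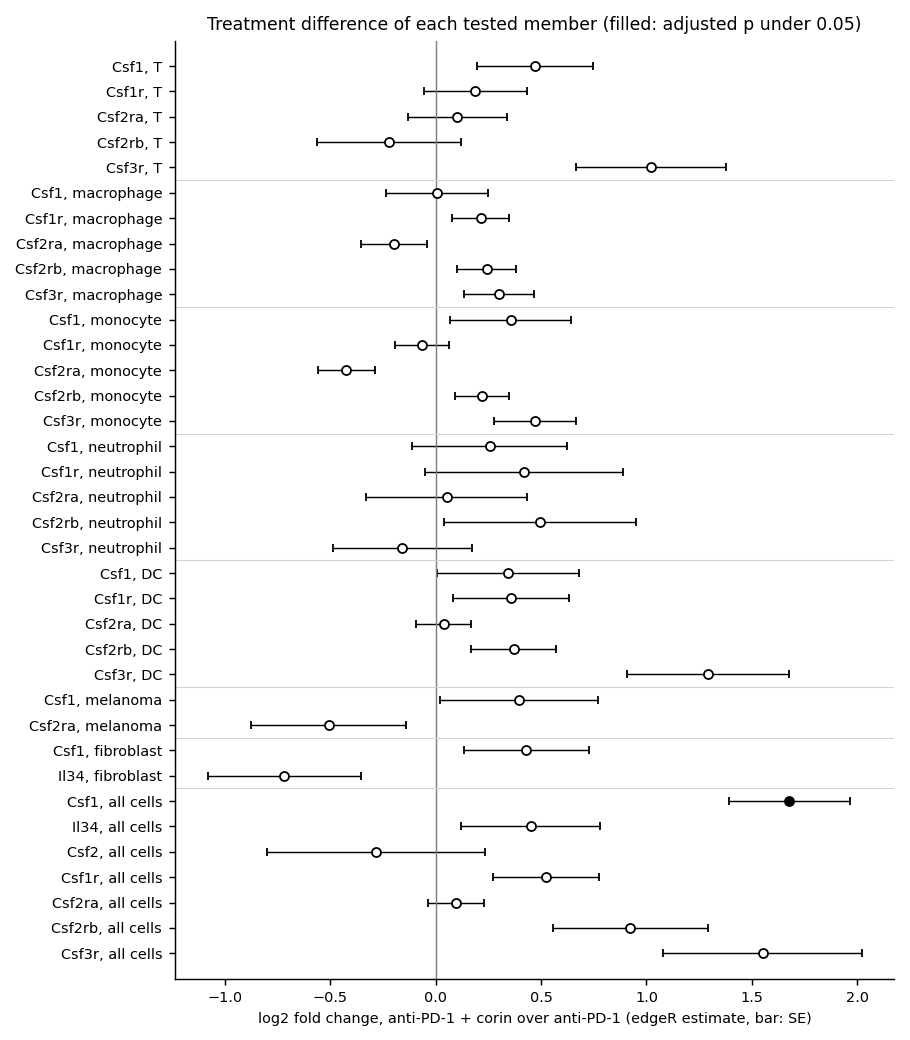
Log2 fold change of each tested member in αPD-1 + corin over αPD-1 (x axis) by member and lineage (y axis); points are edgeR estimates, bars are SE, and filled points have an adjusted p under 0.05. Csf1 over all cells kept, at 1.68, was the only filled point.

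The α chain Csf2ra was lower in monocytes of the αPD-1 + corin samples, short of the threshold. It was at 370, 409 and 335 CPM in the αPD-1 samples and 291, 233 and 290 CPM in the αPD-1 + corin samples. Every αPD-1 sample lay above every αPD-1 + corin sample. The log2 fold change was -0.42 (SE 0.135, adjusted p = 0.134 by edgeR), and it was below 0 under 17 of 17 alternatives, with adjusted p from 0.0736 to 0.413. Macrophages held 206, 216 and 244 CPM of Csf2ra against 177, 146 and 203 CPM, again without overlap. There the log2 fold change was -0.20 (SE 0.155, adjusted p = 0.508 by edgeR). Neutrophil markers moved in both lineages, and neutrophils held less Csf2ra than either (a mean of 145 CPM). All 14 markers were counted in monocytes, where they summed to 562 to 1767 CPM under αPD-1 and 1091 to 7179 CPM under αPD-1 + corin, and 13 of 14 in macrophages, at 319 to 529 against 527 to 1619 CPM. Their part in the result was not tested. In DCs the log2 fold change of Csf2ra was 0.04 (SE 0.13, adjusted p = 0.95 by edgeR), and the groups overlapped. The difference of the treatment effect between monocytes and macrophages was -0.24 (SE 0.185, adjusted p = 0.749 by edgeR).

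Shares of cells gave the same order for Csf2ra. After thinning, 32.2%, 32.4% and 28.8% of monocytes had a Csf2ra UMI under αPD-1, against 23.1%, 20.7% and 21.9% under αPD-1 + corin. In macrophages the shares were 19.6%, 21.2% and 22.3% against 16.0%, 13.7% and 19.0%. Neither lineage showed overlap, and the two-sided exact permutation test gave p = 0.1 for each, the smallest that 3 samples against 3 allow, and an adjusted p of 0.4. Of 28 pairs compared in this way, 7 had no overlap (4 higher and 3 lower), while 17.3% of all gene and lineage pairs had none. Among the 7, Csf3r in monocytes went down in share (9.21% to 7.37%) but up in CPM (89.3 to 125), so no order is read from it.

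Csf3r had the largest positive fold changes, in DCs and T cells. DCs held 15.9, 12.6 and 10.4 CPM in the αPD-1 samples and 45.7, 26.9 and 17.1 CPM in the αPD-1 + corin samples. The groups did not overlap, and the log2 fold change was 1.29 (SE 0.383, adjusted p = 0.245 by edgeR). Without αPD-1 + corin replicate 3 the adjusted p was 0.0235, and without the filter on low counts 0.000209. The difference of this effect between DCs and macrophages was 1.00 (SE 0.458, adjusted p = 0.573 by edgeR). The clusters within DCs shifted as well, and the part of this shift was not tested. The Ifitm1-led cDC2-like cluster held 5.16% to 10.3% of DCs under αPD-1 and 10.9% to 25.5% under αPD-1 + corin. The cDC1-like cluster held 9.74% to 12.9% against 8.11% to 8.81%. Neutrophil markers moved in the same sums: all 14 were counted in DCs, and their summed level was 243 to 662 CPM in the αPD-1 samples and 451 to 2428 CPM in the αPD-1 + corin samples. Their part in the result was not tested.

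In T cells Csf3r was at 5.25, 5.05 and 3.09 CPM in the αPD-1 samples and 11.1, 7.75 and 9.09 CPM in the αPD-1 + corin samples, again without overlap. The log2 fold change was 1.02 (SE 0.355, adjusted p = 0.0589 by edgeR), and 4 of 16 alternatives called it. These levels are near the 7.73 CPM of B cells. Neutrophil markers (13 of 14 counted) summed to 153 to 174 CPM in T cells of the αPD-1 samples and 265 to 639 CPM in those of the αPD-1 + corin samples. Macrophage markers summed to 277 to 350 against 411 to 906 CPM, and monocyte markers to 1031 to 1056 against 1257 to 1397 CPM. DC markers went the other way, at 510 to 653 against 375 to 426 CPM. The part of these markers was not tested. The naive clusters held 52.8% to 60.9% of T cells under αPD-1 and 1.84% to 5.32% under αPD-1 + corin, so different clusters held most T cells in each group.

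The remaining receptor pairs did not pass the threshold. In monocytes, Csf3r was at 101, 72.7 and 94.5 CPM against 127, 154 and 93.7 CPM, with overlap (log2 fold change 0.47, SE 0.194, adjusted p = 0.25 by edgeR). Without αPD-1 + corin replicate 3 it was called, at an adjusted p of 0.0477, but the direction was kept in 13 of 17 alternatives (log2 fold changes of -0.12 to 0.64). The neutrophil marker sums of monocytes given above moved with it, and their part was not tested. Csf2rb in monocytes was at 211, 180 and 203 CPM against 224, 239 and 221 CPM, without overlap and with a log2 fold change of 0.22 (SE 0.128, adjusted p = 0.435 by edgeR). Csf2rb in DCs had a log2 fold change of 0.37 (SE 0.202, adjusted p = 0.566 by edgeR), and without αPD-1 + corin replicate 3 it was 0.60 with an adjusted p of 0.0337. Csf1r had log2 fold changes of 0.21 (SE 0.136) in macrophages and -0.06 (SE 0.127) in monocytes.

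Neutrophils, the lineage with the highest Csf3r level, gave little precision. Csf1, Csf1r, Csf2ra, Csf2rb and Csf3r were tested there, with SE between 0.328 and 0.468, and adjusted p between 0.782 and 0.999 by edgeR. The log2 fold change of Csf3r was -0.16 (SE 0.328) and that of Csf1 0.26 (SE 0.366), both with overlapping samples. Without the Cxcl3-led cluster, Csf3r was at 597, 465 and 341 CPM against 469, 380 and 285 CPM. With barcodes down to 200 genes kept, neutrophils numbered 28, 23 and 20 cells against 1403, 2511 and 318. The mean of Csf1 was then 406 against 426 CPM, and that of Csf3r 523 against 568 CPM, so the log2 fold change of Csf3r turned to 0.33. Csf2rb2 was at 26.3, 37.1 and 38.4 CPM against 89.0, 82.4 and 73.0 CPM in neutrophils, without overlap (log2 fold change 1.44, SE 0.458, adjusted p = 0.283 by edgeR). The αPD-1 values rest on 13 to 21 cells per sample.

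Among the ligands, Csf1 in fibroblasts had a log2 fold change of 0.43 (SE 0.296, adjusted p = 0.392 by edgeR) and Il34 one of -0.72 (SE 0.364, adjusted p = 0.253 by edgeR), both with overlapping samples. Csf1 in macrophages, at 13.9, 12.1 and 17.0 CPM against 13.3, 16.3 and 8.92 CPM, had a log2 fold change of 0.01 (SE 0.242). Csf2 did not pass the filter in T or NK cells. In T cells it was at 3.50, 1.35 and 3.71 CPM in the αPD-1 samples and 19.4, 12.4 and 3.36 CPM in the αPD-1 + corin samples, so 2 of the αPD-1 + corin samples were above the αPD-1 range and replicate 3 was within it. By subset the means were 2.94 against 2.30 CPM in CD8 T cells, 4.64 against 2.06 CPM in cycling T cells and 5.48 against 24.8 CPM in regulatory T cells. Naive T cells held 1 UMI in 1178 cells. The regulatory T cell levels rest on 18 UMIs in 375 cells. In αPD-1 + corin replicate 1, CD8, cycling and regulatory T cells all held 0 CPM. A T cell cluster with no subset name is not in this list. It held 10.9% to 12.9% of T cells under αPD-1 and 22.0% to 58.9% under αPD-1 + corin, highest in replicate 1. The shares of the naive clusters given above moved with the sum over T cells, and their part was not tested. Without the filter the edgeR log2 fold change was 1.66 (SE 0.514, adjusted p = 0.0146), and without αPD-1 + corin replicate 3 it was 2.42 (SE 0.57, adjusted p = 0.00892).

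Over all cells kept, where the shares of the lineages also count, Csf1 rose. It was at 21.3, 20.9 and 20.6 CPM in the αPD-1 samples and 58.8, 86.0 and 41.3 CPM in the αPD-1 + corin samples, a mean of 20.9 ± 0.378 against 62.1 ± 22.5 CPM (SD, n = 3 each). Every αPD-1 + corin sample lay above every αPD-1 sample. The log2 fold change was 1.68 (SE 0.289, adjusted p = 0.0225 by edgeR), and Csf1 was the only one of 7 members tested that was called, in a comparison that called 16.1% of all genes (6.84% higher). The call was lost without any one of the αPD-1 replicates 1, 2 and 3 (lowest adjusted p 0.0798), which leaves that group with 2 samples.

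The rise of Csf1 moved with the numbers of neutrophils and fibroblasts. With neutrophils left out, the level was 20.2 ± 0.0917 against 39.3 ± 9.19 CPM (log2 fold change 1.04, SE 0.187, adjusted p = 0.0177 by edgeR). With fibroblasts left out it was 14.9 ± 0.324 against 41.7 ± 31.2 CPM (1.61, SE 0.516, adjusted p = 0.0723). With both left out it was 13.6, 14.0 and 14.9 CPM against 14.7, 17.6 and 14.3 CPM (0.22, SE 0.123, adjusted p = 0.219 by edgeR). The groups then overlapped. Fibroblasts gave 38.8% and neutrophils 32.3% of all Csf1 UMIs, and leaving them out was chosen after seeing the data. A smaller difference without them therefore cannot decide what raised Csf1, which was not tested. When the level of each lineage or cluster was held at its value pooled over all samples, only the shares of UMIs differed. The means were then 21.9 and 59.7 CPM. The pooled neutrophil level came mostly from the αPD-1 + corin samples, which held most of these cells.

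**Figure D5:**
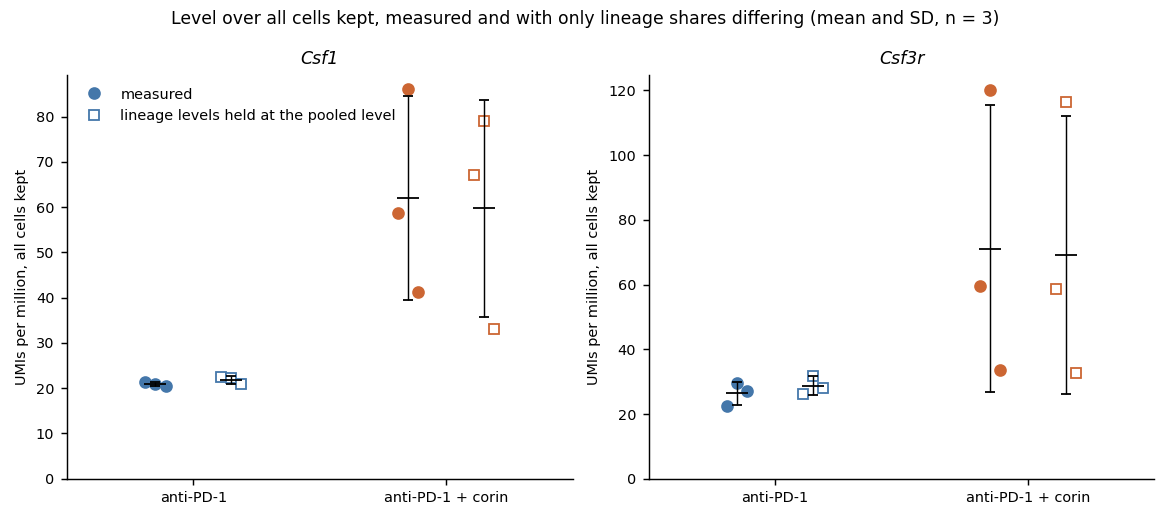
Csf1 and Csf3r over all cells kept (y axis, CPM) by group (x axis); filled circles are measured samples, open squares are the same samples with each lineage held at its pooled level, and bars give the mean and SD of 3 samples. For Csf1 the measured means of 20.9 and 62.1 CPM stand beside 21.9 and 59.7 CPM with levels held.

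Csf3r over all cells kept was at 22.4, 29.6 and 27.1 CPM against 59.5, 120 and 33.6 CPM. The groups did not overlap, with a log2 fold change of 1.55 (SE 0.47, adjusted p = 0.0671 by edgeR). Held at pooled lineage levels, its means were 28.7 and 69.2 CPM. With neutrophils and fibroblasts left out it was at 20.9, 29.3 and 26.9 CPM against 44.7, 38.5 and 32.4 CPM, and the edgeR log2 fold change was 0.68 (SE 0.19, adjusted p = 0.0454). Csf2rb had a log2 fold change of 0.92 (SE 0.366, adjusted p = 0.117 by edgeR) and Csf1r one of 0.52 (SE 0.251, adjusted p = 0.174). Csf2ra stood at 116 ± 12.1 and 116 ± 13.6 CPM (SD, n = 3 each).

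Other genes of these pathways, 57 in 6 lists, were mostly not called outside T cells. In T cells 48 were tested, and 6 rose and 7 fell (27.1%, where 19.3% of all genes were called), with a median log2 fold change of 0.08 against 0.01 over all genes. The JAK-STAT list had 2 genes higher and 3 lower of 11, the myeloid transcription factors 2 higher and 1 lower of 13, and the survival and target genes 2 higher and 1 lower of 7. The adaptors and regulators had 0 higher and 2 lower of 14. The naive T cell shares given above moved with these counts, and their part was not tested. In NK cells 1 of 32 tested was called (Bhlhe40), and in each of the other 6 lineages 0 of 31 to 52 were called by edgeR. There the median log2 fold change over the genes of all lists together ran from -0.13 in melanoma cells to 0.13 in fibroblasts.

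Bhlhe40, a transcription factor that helper T cells need to make GM-CSF, rose in both lymphocyte lineages. It was at 166, 208 and 184 CPM in T cells of the αPD-1 samples and 310, 418 and 330 CPM in those of the αPD-1 + corin samples (log2 fold change 1.00, SE 0.145, adjusted p = 0.00046 by edgeR). In NK cells it was at 248, 168 and 201 CPM against 593, 457 and 318 CPM (1.14, SE 0.212, adjusted p = 0.0299). Both comparisons had no overlap, which was a condition for naming a gene of these lists. Bcl2a1d, an antiapoptotic gene, rose in T cells from 25.2 ± 2.82 to 41.1 ± 9.69 CPM (0.89, adjusted p = 0.00604 by edgeR), a value that is uncertain because its near copies can share reads. Bcl2, the survival factor of resting lymphocytes, was at 299 ± 106 against 115 ± 47.9 CPM and fell by 1.47 on the log2 scale (adjusted p = 0.00258). Stat5b, which transduces signals of the β chain family and of IL-2, was at 148 ± 22.0 against 89.4 ± 16.1 CPM and fell by 0.73 (adjusted p = 0.00531).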

How the data were processed

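Per the paper's methods and the submitters' processing notes, reads of 5′ libraries were mapped with Cell Ranger 8.0 to GRCm39, and the authors deposited raw UMI counts per gene for barcodes called as cells, with a lowest total of 500 UMIs. Barcodes needed 600 to 4000 genes and no more than 10% of UMIs from mitochondrial genes. The barcodes with the highest Scrublet scores (scanpy 1.11.5) were removed at 0.4% per 1000 barcodes in each sample. Samples were merged and clustered with SCTransform (Seurat 5.3.0, sctransform 0.4.2) on 20 principal components at resolution 0.8, without markers, members or pathway genes among the variable genes, and T cell and DC clusters were clustered again. Names required 3 markers, each seen in 10% of the cells of a cluster and 1.5 times as high in CPM (pseudocount 10) as elsewhere. Clusters of mixed lineages, B and plasma cells and 165 unnamed cells were outside the 8 lineages.

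UMI counts were summed per sample and lineage over at least 10 cells and tested with edgeR 4.0.16 (TMM, filterByExpr, quasi-likelihood test, Benjamini-Hochberg adjustment over all genes tested, threshold 0.05). The difference between lineages was tested with sample as a block. On simulated sums with 200 genes changed 4-fold, the test found between 167 of 186 (neutrophils) and 200 of 200 (monocytes) of those kept by the filter. It made 5 to 15 false calls. The simulation gave all genes of a lineage the same spread, and the member fold changes were smaller than 4-fold. It therefore does not measure how often changes of the members' size would be found. Thinned shares (1000 UMIs per cell) were tested by exact permutation, two-sided, for pairs with a mean share of at least 1%, adjusted over the 28 pairs. Intervals cover counting error only.

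The members, gene lists and markers were chosen with earlier results of these data known. All 8 members and Csf2rb2 are named, and of the pathway lists up to 2 genes per direction and lineage with the largest change among those called without overlap. For likeness, candidates had at least 20 CPM in some lineage, with a pseudocount of 1 CPM. Alternatives were RLE size factors, DESeq2 1.42.0, no filter on low counts, a replicate block, each sample left out, no upper limit or a lower limit of 200 genes, no doublet removal, LogNormalize, resolutions 0.4 and 1.2, cells with 2 or more UMIs of other lineages' markers left out, all deposited barcodes, and thinning to 2000 UMIs or none. Leaving out the Cxcl3-led neutrophil cluster, the neutrophils or the fibroblasts was chosen after seeing the data. Gene positions are from GENCODE vM39. R 4.3.3 and Python 3.11.15 were used.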

Additional observations from a re-analysis of the deposited data

Results flagged for a closer look

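Il34 was counted in cells outside the 8 lineages. In the 165 cells of a cluster that took no name, led by Rgs5, Fabp4, Plvap and Col4a1, the pooled Il34 level was 91.2 CPM in the αPD-1 samples and 51.7 CPM in the αPD-1 + corin samples. It stood out because these cells enter no comparison of the lineages, and both values are above the limit that a count of 0 allows (2.84 CPM). The samples held 74.5, 117 and 93.5 CPM against 27.7, 74.3 and 68.3 CPM, without overlap and on 11 to 48 cells per sample, and the difference was not tested. The cluster gave 17.0% of all Il34 UMIs, and 10 endothelial and 8 fibroblast markers counted in it.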

How the results depend on the processing

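The 0 of 29 called member and lineage pairs became 4 with LogNormalize, 2 without the filter on low counts, and 1 each with a lower limit of 200 genes, without doublet removal and at resolution 0.4. Leaving out each replicate gave 0 to 4, and the 4 came without αPD-1 + corin replicate 3. Over all cells kept, 1 member was called, and 3 with DESeq2, 0 with fibroblasts left out, and 0 to 4 with each replicate left out, the 4 without αPD-1 + corin replicate 3. With neutrophils and fibroblasts left out 1 was called, and it was Csf3r in place of Csf1. Pathway genes called higher (7) became 11 with DESeq2, 14 with LogNormalize, 21 without the filter and 4 without an upper limit on genes, and 4 to 20 with each replicate left out. Those called lower (7) became 13 without the filter, 3 without an upper limit and 3 with cells holding other lineages' marker UMIs left out, and 2 to 18 with each replicate left out. Pairs whose shares of cells did not overlap rose from 7 to 11 without αPD-1 + corin replicate 3 (7 to 11 over the replicates left out). Members whose treatment effect differed between DCs and macrophages rose from 0 to 1 (Csf3r, 0 to 1 over the replicates).

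The labels do not say whether same-numbered samples are paired, and the main tests treated them as unpaired. The correlation of their deviations from the group means was -0.13 to 0.03 over all cells kept and -0.25 to 0.16 within lineages. It was highest with the own number for replicate 1 in T cells (0.16) and replicate 2 in melanoma cells (0.12). With 3 samples a group, these correlations cannot settle whether same-numbered samples share a batch. With a replicate block, the members called over all cells kept went from 1 to 0 (Csf1, adjusted p = 0.0508), the pathway genes called lower from 7 to 4, and the member and lineage pairs stayed at 0.

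In cells without other lineages' marker UMIs, the mean level of Il34 in fibroblasts was 69.3 CPM, of Csf1r in monocytes 469 CPM and of Csf3r in neutrophils 445 CPM, and the mean over cells of the latter was 442 CPM. Signs turned for some log2 fold changes, none of them called in the main comparison. Csf1 in macrophages kept its sign in 9 of 17 alternatives (-0.52 to 0.28) and Csf2ra in DCs in 13 of 17 (-0.07 to 0.35). Csf1 in neutrophils was -0.044 with LogNormalize and -0.027 to 0.52 with each replicate left out, lowest without αPD-1 + corin replicate 3. Csf1r in monocytes was at 0.10 without an upper limit, 0.10 without cells holding other lineages' marker UMIs, and -0.15 to 0.025 with each replicate left out, highest without αPD-1 + corin replicate 3. Csf3r in monocytes was at -0.12 with LogNormalize, -0.080 with the lower limit of 200 genes, -0.073 without doublet removal and -0.033 at resolution 1.2. Csf3r in neutrophils was at 0.33 with the lower limit, 0.36 without doublet removal, 0.11 without the filter, 0.16 at resolution 1.2, and -0.31 to 0.29 with each replicate left out, above 0 without αPD-1 + corin replicate 3 (0.0058) and without αPD-1 replicate 1 (0.29). The causes were not tested. With 3 samples a group and 13 to 21 neutrophils per αPD-1 sample, neutrophil differences are the least certain.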

Other observations

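The barcodes outside the gene limits also held UMIs of the members. In barcodes under 600 genes, the pooled Csf3r level was 28.9 CPM in 3731 barcodes of the αPD-1 samples and 295 CPM in 9353 barcodes of the αPD-1 + corin samples. There Csf1 was at 17.0 and 168 CPM, and Csf2rb at 37.4 and 173 CPM. Csf1r, at 41.2 and 42.9 CPM, was close in both groups. In barcodes over 4000 genes, Csf1 was at 18.1 CPM in 3318 barcodes of the αPD-1 samples and 35.1 CPM in 4930 barcodes of the αPD-1 + corin samples, and Csf3 at 0.0871 and 0.868 CPM, with 10 and 130 UMIs. These barcodes were not clustered in the main analysis and were not tested.

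The mixed cluster of cells with T cell and macrophage transcripts (1606 cells) held the myeloid receptors at levels below those of macrophages. Its Csf2ra was at 152, 155 and 164 CPM in the αPD-1 samples and 97.8, 67.6 and 131 CPM in those with corin, and the groups did not overlap. Csf1r was at 137, 162 and 155 CPM against 124, 135 and 114 CPM, also without overlap. Neither was tested.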
